A study of Mus musculus with 96 samples.

Results

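Passage through the G1 phase of the cell cycle was followed here through 10 genes measured in single olfactory stem cells: the D-type cyclins Ccnd1, Ccnd2 and Ccnd3, the cyclin-dependent kinases Cdk2, Cdk4 and Cdk6, and the kinase inhibitors Cdkn1a, Cdkn1b, Cdkn2a and Cdkn2b. They were taken by symbol from the 55487 gene rows of the deposited count matrix, and all 10 were found. The cells were horizontal basal cells (HBCs), the reserve stem cells of the olfactory epithelium, from wild-type mice aged 6 to 8 weeks that had received methimazole, a drug that strips the epithelium, 2 days before dissection. The HBCs were grown ex vivo and allowed to divide after the coating was changed from tropoelastin to fibronectin, and the daughters of each division were picked singly with a mouth pipette, so that 96 cells formed 48 sister pairs. Every cell carried the same label (wild-type cultured HBC daughter), there was no second condition, and the mouse and the culture of each pair and the time since its division were not given in the sources used here. Tests between groups were therefore not possible, and the values below are descriptions over cells and pairs.

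RNA was captured on oligo-dT beads with ERCC spike-in transcripts added to each lysate, and each cell yielded 29454200 to 44849000 counts on genes. The spike-in took between 1.06% and 5.75% of all counts, and counts on genes per unit of spike-in, an estimate of RNA content, spanned 5.81-fold between cells. The HBC markers Trp63, Krt5 and Krt14 were counted in all 96 cells, and 14 of 15 markers of other epithelial, blood, endothelial and fibroblast cells had a median of 0 counts; the exception was Pecam1, with a median of 3 counts and 10 or more in 5 cells. Of the others, Gap43 had 10 or more counts in 13 cells (up to 2107), Pdgfra in 7 (up to 2132) and Lgr5 in 5 (up to 1296), and their part in the results was not tested. The file names placed the cells in 12 consecutive sets of 8, that is 4 pairs per set; what a set stands for was not given.

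In the classical pathway, growth signals raise the D-type cyclins, which bind Cdk4 and Cdk6 and start the phosphorylation of the retinoblastoma protein. E2F factors are thereby released and switch on cyclin E, the partner of Cdk2, together with the genes of DNA replication. The inhibitors of these kinases fall into families: the Cip/Kip proteins p21 (Cdkn1a) and p27 (Cdkn1b), which bind several cyclin-kinase complexes, and the INK4 proteins p15 (Cdkn2b) and p16 (from Cdkn2a), which bind Cdk4 and Cdk6 alone. Cdkn1a is a well-known target of the p53 factor, and Mki67 encodes the Ki-67 antigen, the usual marker of cycling cells.

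On GRCm38, the build of the files, Ccnd1 lies on chromosome 7 (144929931 to 144939925, minus strand), Ccnd2 on 6 (127125162 to 127152193, minus) and Ccnd3 on 17 (47505051 to 47599691, plus). Cdk2 and Cdk4 are both on chromosome 10 (128697939 to 128705031, minus, and 127063534 to 127067920, plus), and Cdk6 is on 5 (3341485 to 3531008, plus). Of the inhibitors, Cdkn1a is on 17 (29090976 to 29100727, plus), Cdkn1b on 6 (134920401 to 134925513, plus), and Cdkn2a and Cdkn2b are neighbors on 4 (89274471 to 89294653 and 89306299 to 89311039, both minus). Counts and TPM were given per gene, not per transcript.

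The results turn largely on Cdkn1a and Cdk2 and on their relation to other genes, so their start regions are shown beside that of Mki67, as listed by RefSeq on GRCm38.p6 from 250 bases before to 50 bases after a transcription start. Windows were listed for 8 of the 10 genes, 11 windows in all. Capitals mark every match, on either strand, to TTTCCCGC (an E2F motif), TTTGAA (the cell cycle genes homology region), the CCAAT box, the TATA box (spelled TATAAA), or the core of a p53 site, taken as CATG repeated after a gap of 6 bases, with the gap also in capitals. No capitals overlap a match to the GC box (spelled GGGCGG), which was searched as well and is left in lower case.
Cdkn1a, upstream start, chr17:29090729-29091028, plus strand: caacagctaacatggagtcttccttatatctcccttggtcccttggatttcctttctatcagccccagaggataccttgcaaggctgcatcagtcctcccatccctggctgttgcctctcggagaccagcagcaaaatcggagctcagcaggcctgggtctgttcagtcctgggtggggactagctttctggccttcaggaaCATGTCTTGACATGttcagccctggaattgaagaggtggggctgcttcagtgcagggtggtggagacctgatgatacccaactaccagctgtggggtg
Cdk2, chr10:128705002-128705301, minus strand: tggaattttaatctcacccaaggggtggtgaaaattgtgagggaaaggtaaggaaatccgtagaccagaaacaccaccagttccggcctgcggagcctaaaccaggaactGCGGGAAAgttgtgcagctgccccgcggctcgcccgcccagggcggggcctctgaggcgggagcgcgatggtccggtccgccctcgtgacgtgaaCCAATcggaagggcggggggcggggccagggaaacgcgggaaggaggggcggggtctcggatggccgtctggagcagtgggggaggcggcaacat
Mki67, chr7:135716330-135716629, minus strand: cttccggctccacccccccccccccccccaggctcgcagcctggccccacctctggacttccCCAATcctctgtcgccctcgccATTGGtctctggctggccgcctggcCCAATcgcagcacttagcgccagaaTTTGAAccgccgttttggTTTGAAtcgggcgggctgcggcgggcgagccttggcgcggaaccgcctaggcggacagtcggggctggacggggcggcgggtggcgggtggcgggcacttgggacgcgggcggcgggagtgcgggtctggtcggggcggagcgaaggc
The pair of p53 cores stood 48 bases before the upstream start of Cdkn1a, and 0.712% of the 32851 listed promoter windows of the mouse genome held such a pair; the second listed start of Cdkn1a, at position 29093769, held none. The E2F motif TTTCCCGC lay on the opposite strand in the Cdk2 window, starting 140 bases before its start site, and was found in 1.07% of all windows; among the other members it occurred in 1 of the 2 windows of Cdkn2a. Mki67 held 2 matches to TTTGAA, present in 17.9% of all windows, and 3 to the CCAAT box, present in 37.4%. Within the 11 windows of the members, TTTGAA occurred in Cdkn2b alone, the CCAAT box in 4 windows, the TATA box in Cdk6 alone (13.6% of all windows) and the GC box in 9 (35.7%). Of the other E2F motifs searched, TTTGGCGC occurred in none of the 11 windows (0.514% of all windows), and likewise TTTCGCGC (0.323%). These matches describe the letters only; binding was not measured.

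The G1 genes differed widely in level. On the deposited TPM scale (corrected for transcript length, so that genes can be compared), Ccnd1 was highest with a median of 590.4 over the 96 cells, followed by Cdk4 at 387, Ccnd2 at 230.1, Cdkn1a at 123, Ccnd3 at 99.8, Cdk6 at 50.1, Cdk2 at 26.2, Cdkn2b at 13.8 and Cdkn1b at 12.0. Cdkn2a had a median of 0, and Mki67 stood at 72.1. Ccnd1 exceeded 98.4% of the 14463 genes that passed the filter of 10 counts in at least 10% of cells, whereas Cdkn1b exceeded 57.5% of them.

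**Figure D1:**
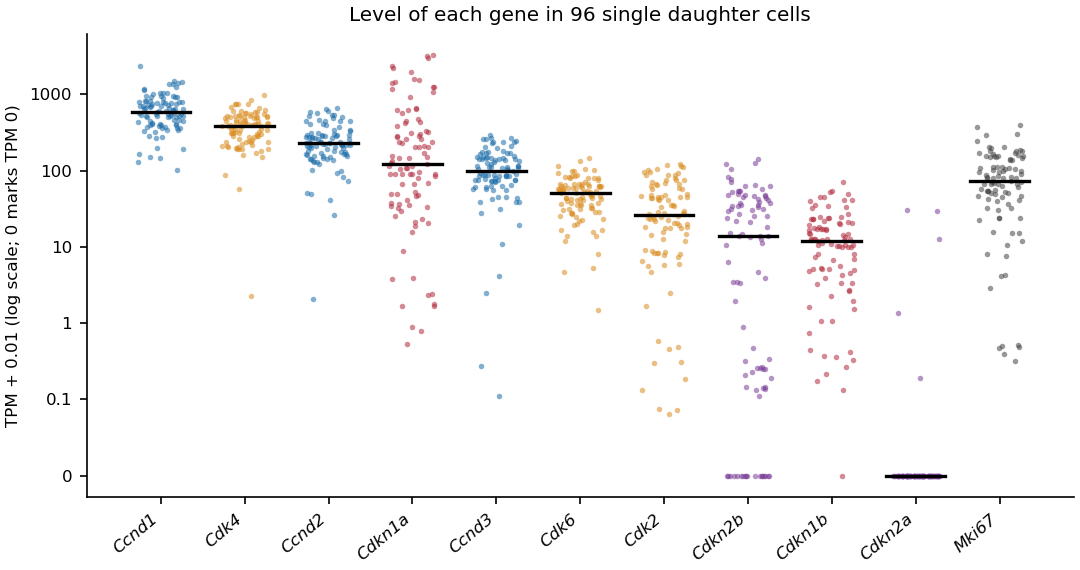
TPM (log scale, 0.01 added so that cells at 0 can be drawn) of the 10 G1 genes in order of their median, and of Mki67 at the right; each point is 1 of 96 cells and the bar is the median. The points of Cdkn1a span from 0.527 to 3295 TPM, Cdkn2b has a band of 18 cells at 0, and Cdkn2a is at 0 in all but 5 cells.

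Most neighbors in this order overlapped. Ccnd1 was above Cdk4 in 70 of 96 cells, Cdk4 above Ccnd2 in 74, and Ccnd3 above Cdk6 in 76. By contrast, Ccnd2 was above Cdkn1a in 57 cells (59.4%, exact Clopper-Pearson 95% interval 48.9% to 69.3%), Cdkn1a above Ccnd3 in 56 (58.3%, 47.8% to 68.3%) and Cdkn2b above Cdkn1b in 49 (51.0%, 40.6% to 61.4%), so the order within these 3 couples was not resolved. Intervals here and below cover counting error only and treat cells as independent, which sisters are not.

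7 of the 10 genes had at least 1 count in all 96 cells: the 3 D-type cyclins, the 3 kinases and Cdkn1a. With a minimum of 10 counts this held for 5 genes, since Ccnd3 then dropped out in 1 cell and Cdk2 in 4. Cdkn1b was counted in 95 cells, Cdkn2b in 78 and Cdkn2a in 5.

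Among the D-type cyclins, Ccnd1 dominated. Its counts ran from 7320 to 199326 with a median of 47384; those of Ccnd2 ran from 268 to 95281 (median 31419) and those of Ccnd3 from 7 to 14080 (median 4307.5). Expressed as a share of the summed D-type cyclin TPM of a cell, Ccnd1 made up a median of 63.2% (quartiles 54.6% and 70.1%), Ccnd2 23.9% (19.1% and 32.5%) and Ccnd3 11.3% (7.42% and 15.6%). Ccnd1 led in 92 of 96 cells (95.8%, interval 89.7% to 98.9%) and Ccnd2 in the remaining 4, and the leader was the same in both sisters of 44 of 48 pairs. Without correction for length Ccnd1 led in 71 cells, as the longer Ccnd2 transcript collects more counts per molecule.

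**Figure D2:**
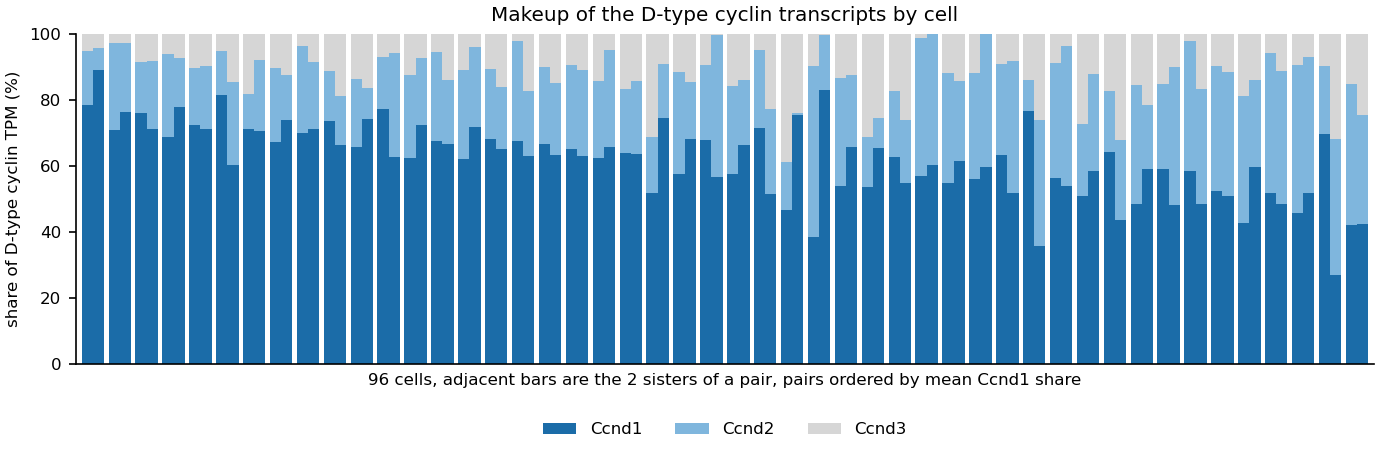
Share (%) of the summed TPM of the D-type cyclins taken by Ccnd1, Ccnd2 and Ccnd3 in each of 96 cells; the bars of sisters touch and pairs are ordered by their mean Ccnd1 share. Ccnd1 is the largest part in 92 cells, and Ccnd3 ranges from 0.0137% to 38.9%.

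The 4 cells led by Ccnd2 each had a sister led by Ccnd1. In daughter 1 of pair 10 the genes were nearly level (Ccnd2 at 514 TPM, Ccnd1 at 510.3). In daughter 2 of pair 4 they were at 213 and 199.8 TPM, in daughter 2 of pair 47 at 196.5 and 128, and in daughter 1 of pair 29 at 452 and 336. The sister of the last cell held Ccnd1 at 1392 TPM and Ccnd2 at 284. Ccnd1 and Ccnd2 thus differed in opposite directions between those sisters.

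Cdk4 outweighed Cdk6, its partner in binding D-type cyclins, in 95 of 96 cells (99.0%, lower limit of the interval 94.3%), by a median of 8.21-fold in TPM. Counts of Cdk4 were 109, 16209 and 44126 (lowest, median, highest), and those of Cdk6 were 359, 10854 and 34736; the Cdk6 counts are high for its TPM because its transcript is long. The single exception was daughter 2 of pair 4, where Cdk4 fell to 109 counts (2.22 TPM) beside 1334 counts of Cdk6 (4.61 TPM). Cdk2, the partner of cyclin E, had 4, 1329 and 5787 counts, with quartiles of 8.73 and 57.8 TPM beside 256 and 501 for Cdk4; as a ratio, though not as a difference in TPM, its quartiles lay further apart.

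The inhibitors were uneven in another way. Cdkn1a, with 13, 3842.5 and 106378 counts, supplied the largest share of inhibitor TPM in 80 of 96 cells, Cdkn2b in 11 and Cdkn1b in 5. The summed inhibitor TPM (median 173) exceeded the summed D-type cyclin TPM (median 943) in 15 cells (15.6%, interval 9.02% to 24.5%), which were both sisters in 4 pairs and 1 sister in 7 pairs. Cdkn1b ranged from 0 to 5624 counts around a median of 844.5.

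Cdkn2b had a gap in its distribution: 18 cells had no count, 14 had 1 to 9, only 7 had 10 to 99, and 57 had 100 or more, up to 4315. Both sisters held counts in 32 pairs, 1 sister in 14 and neither in 2. The neighboring Cdkn2a, whose nearer RefSeq start lies 16413 bases from that of Cdkn2b on chromosome 4, was read only in daughter 2 of pair 6 (229 counts), daughter 1 of pair 24 (26), daughter 2 of pair 36 (660), daughter 2 of pair 40 (5) and daughter 1 of pair 42 (543). In all 5 the sister had 0 counts, and Mki67 was present at 3059 to 36371 counts. Cdkn2b in the same cells stood at 1072, 8, 9, 1631 and 392 counts, so that 2 of the 5 had fewer than 10 counts of it. The counts are per gene and do not separate the p16 transcript from the Arf transcript, which starts 12427 bases further upstream.

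Cdkn1a varied most among the 7 members counted in all cells. After division by the spike-in size factor of each cell (ERCC-normalized count), it ran from 11.1 to 129071, an 11596-fold range, with an upper quartile 10.9 times the lower; the same quartile ratio was 2.09 for Ccnd1, 2.03 for Ccnd2, 2.22 for Cdk4, 2.46 for Cdk6, 2.60 for Ccnd3, 5.75 for Cdk2 and 4.29 for Mki67. Of the 96 cells, 11 were at least 10 times above the median and 11 at least 10 times below it. The coefficient of variation was 1.71, against 0.217 to 0.376 for the 6 ERCC transcripts whose mean TPM lay within 2-fold of Cdkn1a and 0.267 to 0.650 for those matched on the median TPM. High and low cells came in pairs: both sisters were above the median in 18 pairs, both at or below it in 18, and split in 12.

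Single pairs, named here after their values were seen, illustrate this. Both daughters of pair 42 held almost no Cdkn1a (13 and 23 counts) together with abundant Mki67 (36371 and 35623), and those of pair 32 were alike (41 and 64 counts of Cdkn1a, 51828 and 39913 of Mki67). Pair 4 was the reverse, with 67835 and 106378 counts of Cdkn1a and 127 and 120 of Mki67. Yet both daughters of pair 21 were high in both genes, with 71578 and 68599 counts of Cdkn1a beside 25632 and 35103 of Mki67. Across all cells the relation between the genes was weak, as given below.

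How far sisters differed was measured as the higher over the lower ERCC-normalized count (each plus 1) in each pair. The median over 48 pairs was 1.46 for Ccnd1, 1.56 for Ccnd2, 1.56 for Cdk4, 1.67 for Ccnd3, 1.83 for Cdk6, 2.58 for Cdkn1b, 2.73 for Cdkn1a, 2.79 for Cdk2 and 8.90 for Cdkn2b. The D-type cyclins and Cdk4 were thus closest between sisters, and the inhibitors and Cdk2 furthest apart. The median reached 1.5, the fold that the study used to call single pairs asymmetric and that serves here only as a descriptive mark, for 8 of the 9 members that passed the filter, where the same was true of 78.4% of all filtered genes (median ratio over all genes 2.39). On counts scaled to the library total on genes (CPM) it did so for 6 of 9, beside 62.2% of all genes. Cdkn2a, which did not pass the filter, differed in its 5 pairs only because 1 sister was at 0.

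Counted by pairs, the higher sister had at least 1.5 times the lower in 23 pairs for Ccnd1 (47.9%), 25 for Ccnd2 (52.1%), 26 for Cdk4 (54.2%), 29 for Cdk6 (60.4%), 31 for Ccnd3 (64.6%), 32 for Cdk2 (66.7%), 38 for Cdkn1a (79.2%), 39 for Cdkn2b (81.2%) and 41 for Cdkn1b (85.4%). Technical spread was read from spike-in transcripts with a mean TPM within 2-fold of each gene, since these entered all lysates in equal amount. The 6 transcripts near Cdkn1a passed 1.5 in 14.6% to 50% of pairs, below the interval of Cdkn1a (65.0% to 89.5%). The mean TPM of Cdkn1a (421) lay far above its median (123), however, and the 6 transcripts within 2-fold of that median passed in 20.8% to 70.8% of pairs, which reached into the interval. For Cdkn1b (60.4% to 87.5% over 9 transcripts), Cdkn2b (60.4% to 87.5% over 14) and Cdk2 (66.7% to 83.3% over 10) the spike-in range enclosed or touched the gene's own share. The same held for Ccnd1 (18.8% to 50%), Ccnd2 (14.6% to 60.4%) and Ccnd3 (20.8% to 70.8%), while Cdk6 lay below its range (66.7% to 83.3%) and Cdk4 slightly above (14.6% to 50%, inside the interval of Cdk4, 39.2% to 68.6%). Spike-in shows technical spread only, and no member had its interval above it under both ways of matching.

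The pair with the largest ratio was given for each member by rule. Cdkn1a differed most in pair 3, with 42754 and 49 counts, while Mki67 was abundant in both sisters (17074 and 21536). Ccnd2 differed most in pair 19 (6838 and 268 counts), Ccnd3 in pair 31 (3460 and 7) and Ccnd1 in pair 47 (44378 and 9742). The largest ratios of Cdk4 (8422 and 109 counts) and Cdk6 (29315 and 1334) fell in the same pair, pair 4. Cdk2 differed most in pair 26 (4630 and 16), Cdkn1b in pair 41 (1027 and 0), and Cdkn2b in pair 46 (0 and 1122). In the latter pairs Mki67 was itself far apart, at 121 and 15692 counts in pair 41 and at 64 and 18101 in pair 46; in pair 41 the sister with Cdkn1b was the one low in Mki67, and in pair 46 the sister without Cdkn2b was.

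**Figure D3:**
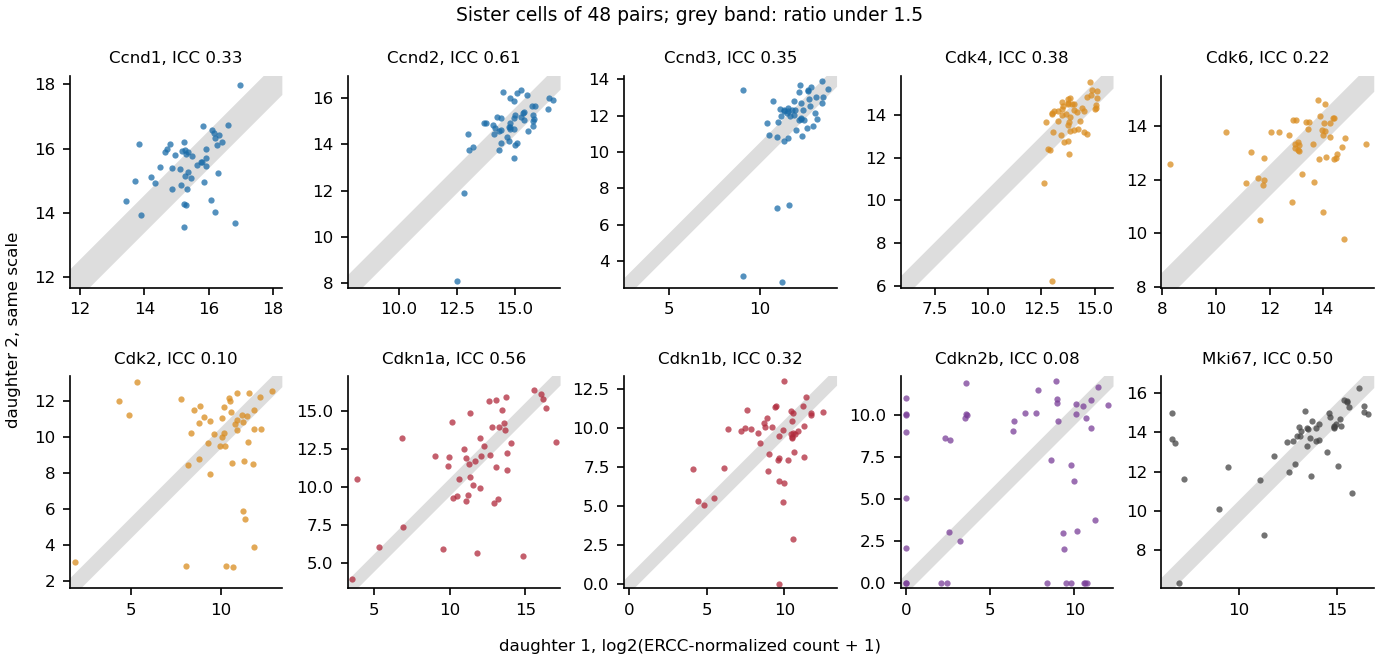
Each panel plots log2(ERCC-normalized count + 1) of daughter 1 against daughter 2 for 48 pairs; the grey band holds ratios under 1.5, and the intraclass correlation (ICC) stands above each panel. Points of Ccnd2 and Cdkn1a lie closest to the diagonal relative to their spread (ICC 0.61 and 0.56), while those of Cdk2 and Cdkn2b scatter to the axes (0.10 and 0.08).

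The other side of the comparison is how far pairs differed from each other. The intraclass correlation, the share of the variance of log2(ERCC-normalized count + 1) that lies between pairs, was 0.61 for Ccnd2, 0.56 for Cdkn1a, 0.38 for Cdk4, 0.35 for Ccnd3, 0.33 for Ccnd1, 0.32 for Cdkn1b, 0.22 for Cdk6, 0.10 for Cdk2 and 0.08 for Cdkn2b. Sisters thus shared their level of Ccnd2 and Cdkn1a most closely relative to the spread over all cells. A value of 0.5 was reached by 2 of 9 members, beside 6.9% of all filtered genes (median 0.16 over all genes). On CPM the same 2 reached it, Ccnd2 with 0.59 and Cdkn1a with 0.51, beside 4.4% of all genes. Mki67 itself was at 0.50.

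Cdkn1a therefore had a large difference between sisters together with a large spread over all cells. Its standard deviation on the log2 scale was 1.99 within pairs and 2.97 over all cells, compared with 0.71 and 1.12 for Ccnd2. The value over all cells includes the spread within pairs. The intraclass correlation of Ccnd2 stayed between 0.57 and 0.62 when each pair was left out in turn. That of Cdkn1a fell to 0.47 without pair 42, and to 0.49 without pairs 41 to 44. Centering each gene on the mean of its set of 8 cells, which also removes part of the spread between pairs, gave 0.54 for Ccnd2 and 0.45 for Cdkn1a.

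Ccnd2 was lowest in both daughters of pairs 19 and 12, again named after their values were seen. Pair 19 had 6838 and 268 counts and pair 12 had 5742 and 3604, and these pairs were rich in Mki67 (84880 and 76584 counts in pair 19, 66818 and 32349 in pair 12). Ccnd1 was highest in both daughters of pair 43 (98818 and 199326 counts), which had little Mki67 (110 and 2439). These are the ends of the distributions, and the relation over all cells was far looser.

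Each member was next set against Mki67 over all 96 cells, to ask which G1 genes follow the cycling state. With ERCC-normalized counts, Spearman's rho was 0.44 for Cdk4 and 0.40 for Cdkn1b, followed by Ccnd3 at 0.24, Cdk2 at 0.20, Cdk6 at 0.18, Cdkn2b at 0.15, Ccnd1 at -0.02, Ccnd2 at -0.03 and Cdkn1a at -0.10. A rho of at least 0.3 was reached by 2 of 9 members, beside 15.8% of all genes, and a rho of -0.3 or lower by none, beside 0.0553%. Cells with more RNA hold more of most transcripts per unit of spike-in: the median rho to Mki67 over all genes was 0.14, and the rho of Mki67 to the estimated RNA content was 0.41, of Cdk4 0.55 and of Cdk6 0.60. All such values rest on cells that share pairs, sets and depth, and carry no p-value.

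**Figure D4:**
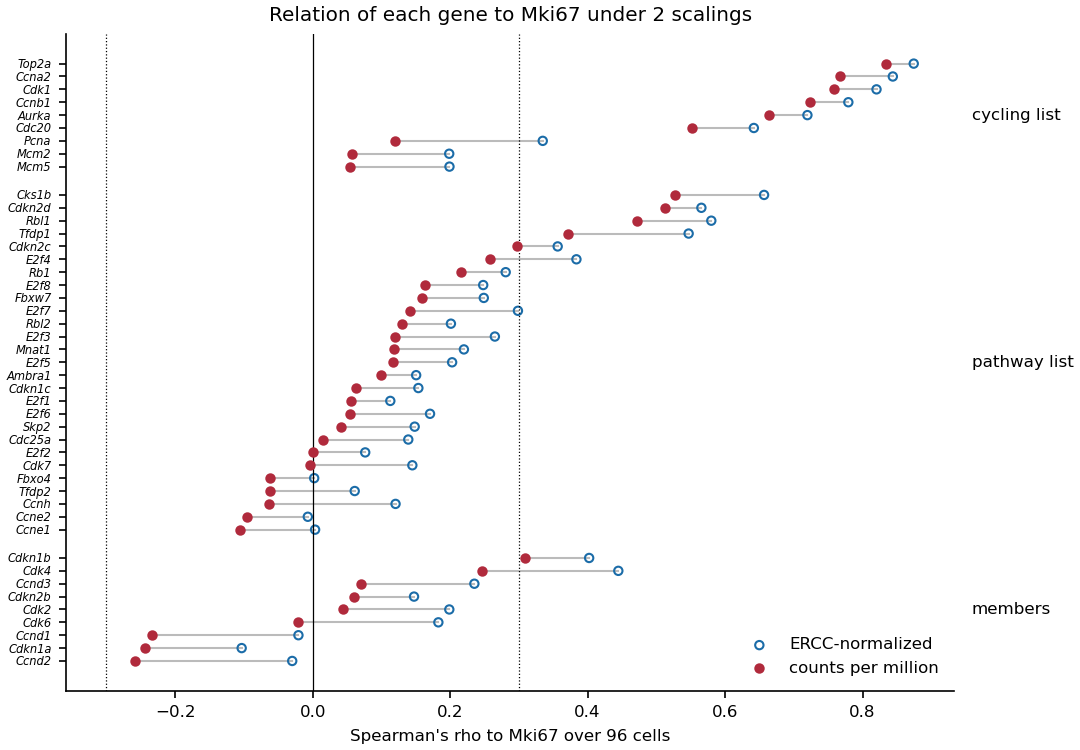
Spearman's rho to Mki67 over 96 cells for the 9 G1 genes that passed the filter, 27 other genes of the G1/S pathway and 9 other cycling genes, with ERCC-normalized counts (open) and CPM (filled); dotted lines mark 0.3 and -0.3. Top2a reaches 0.87 and 0.83, while Ccnd1, Ccnd2 and Cdkn1a lie lowest among the members on CPM, between -0.26 and -0.23.

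Relative to all other RNA (CPM), every member had a lower rho. Cdkn1b was at 0.31 and Cdk4 at 0.25, while Ccnd1 was at -0.23, Cdkn1a at -0.24 and Ccnd2 at -0.26. Thus 1 of 9 members reached 0.3, beside 3.56% of all genes, and none reached -0.3, beside 0.491%; the median over all genes was 0.02. Ccnd1, Ccnd2 and Cdkn1a nevertheless lay near the lower end, above 1.95%, 1.19% and 1.62% of all genes. Cdk6 changed sign between the scalings (0.18 and -0.02). The rho of Cdk4 was 0.41 and that of Cdkn1b 0.37 without the 2 cells furthest from the median Mki67 level; centered on sets of 8 cells they were 0.36 and 0.28.

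Between pairs and between sisters, the relation was read separately. With ERCC-normalized counts, the rho of Cdk4 and of Cdkn1b to Mki67 over the 48 pair means was 0.47 for both. On CPM it was 0.25 for Cdk4 and 0.42 for Cdkn1b. Over the within-pair differences (log2) a correlation through the origin was used, which cannot be set directly against rho. With ERCC-normalized counts it was 0.19 for Cdk4 and -0.17 for Cdkn1b, where the median over all genes was 0.05 (quartiles -0.06 and 0.16). On CPM it was 0.11 for Cdk4 and -0.11 for Cdkn1b, with a median of 0.01 over all genes (quartiles -0.10 and 0.11). The sister higher in Mki67 was also the higher in Cdk4 in 29 of 48 pairs (60.4%, interval 45.3% to 74.2%), in Ccnd1 in 28, in Ccnd2, Ccnd3, Cdk2 and Cdk6 in 26 each, in Cdkn1a and Cdkn2b in 25 each, and in Cdkn1b in 22 (45.8%, 31.4% to 60.8%). The interval of every member included 50%, so that no G1 gene was resolved as marking the sister with more Mki67 in 48 pairs. This count resolved only part of the cycling genes as well. Ccnb1 was higher in the same sister as Mki67 in 35 pairs (72.9%, 58.2% to 84.7%), Cdk1 in 33 and Pcna in 32, with intervals above 50%. The intervals of Ccna2 (30 pairs), Top2a and Aurka (29 each), Cdc20 (27), Mcm5 (26) and Mcm2 (24) included 50%.

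Several pairs in which a single sister had almost no Mki67 show the range of G1 states beside it, and were chosen after their values were seen; the values are ERCC-normalized counts, the sister low in Mki67 first. In pair 46, Mki67 was at 93.6 and 32760, Cdkn1a at 9568 and 15472, and Ccnd1 at 58369 and 106413, so that both were lower beside low Mki67. In pair 41 (Mki67 at 94.1 and 13006), Ccnd1 was higher in the sister low in Mki67 (38646 and 19745), Cdk4 was lower there (8148 and 17429), and Cdkn1a was close in both (2439 and 2876). In pair 8 (103 and 11113), Cdkn1a was higher in the sister low in Mki67 (7703 and 488), as was Cdk4 (14455 and 4656). In pair 43 (143 and 3153), Cdkn1a was lower there (1167 and 20013). The direction of Cdkn1a was thus not shared by these pairs.

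The wider G1/S pathway was read from 27 further genes. All gene lists here and below were chosen with earlier results of these data known. With ERCC-normalized counts 6 of 27 reached a rho of 0.3 to Mki67, beside 15.8% of all genes, and none -0.3: the INK4 inhibitors Cdkn2c and Cdkn2d (0.36 and 0.57), the pocket protein Rbl1 (0.58), E2f4 (0.38), its partner Tfdp1 (0.55), and Cks1b (0.66), which assists in the destruction of p27. On CPM 4 of these remained, beside 3.56% of all genes (Cdkn2d 0.51, Rbl1 0.47, Tfdp1 0.37 and Cks1b 0.53). The cyclin E genes Ccne1 and Ccne2, known to peak at the G1/S boundary, were near 0 (0.0035 and -0.0071), while their intraclass correlations were 0.70 and 0.52. In all, 4 of 27 pathway genes reached 0.5 on that measure, beside 6.9% of all genes, the others being E2f8 (0.51) and Cks1b (0.57). On CPM 2 of 27 reached it, Ccne1 (0.69) and E2f8 (0.54), beside 4.4% of all genes. Centered on sets, Ccne1 was at 0.64, Cks1b at 0.45, Ccne2 at 0.42 and E2f8 at 0.33. Of 9 other cycling genes, 7 reached a rho of 0.3 (6 on CPM), led by Top2a (0.87). Of the replication genes, Pcna was at 0.33 (0.12 on CPM), whereas Mcm2 and Mcm5 stayed at 0.20. This contrast depended on the measure. Pearson's r to Mki67 on log2 values was 0.45 for Mcm2, 0.52 for Mcm5 and 0.47 for Pcna, beside 0.78 for Top2a.

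Over cells, Cdk2 went with these replication genes and the cyclin E genes. Over 96 cells its rho on CPM was 0.53 to Mcm5 and 0.40 to Mcm2, subunits of the replicative helicase, 0.48 to Pcna, the sliding clamp, 0.36 to Ccne2 and 0.31 to Ccne1, but 0.04 to Mki67, 0.13 to Top2a and -0.11 to Ccnb1, the mitotic cyclin. Of the 12 cycling and cyclin E genes, 5 reached 0.3, beside 0.802% of all genes. The same 5 did so on ERCC-normalized counts, where Ccna2 (0.32) joined them, and after centering on sets. The difference between these correlations was not tested. Between sisters, Mcm5 was higher in the same cell as Cdk2 in 32 of 48 pairs (66.7%, interval 51.6% to 79.6%), Ccne2 in 30 (62.5%, 47.4% to 76.0%), Mcm2 in 27, Pcna in 24 and Ccne1 in 20 (41.7%, 27.6% to 56.8%). Of these 5 genes, only the interval of Mcm5 lay above 50%.

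**Figure D5:**
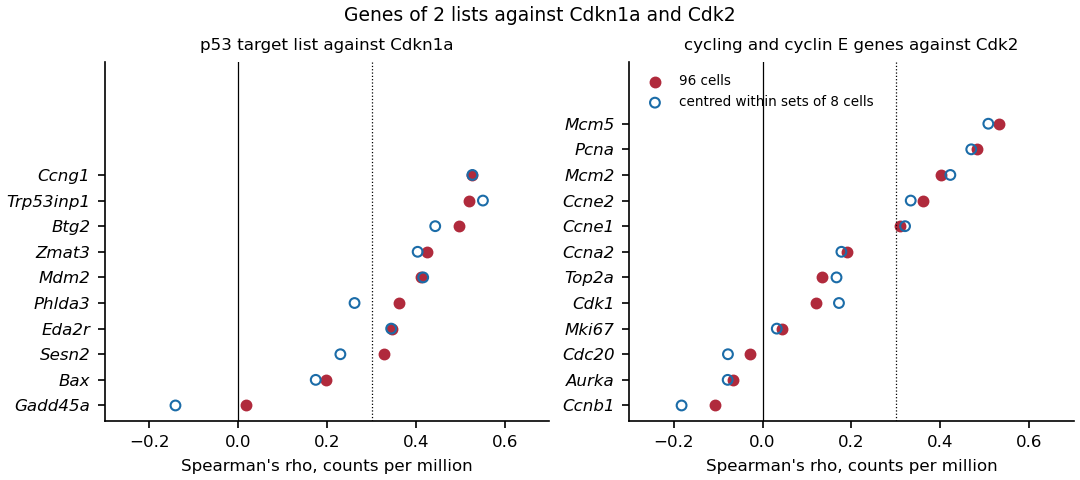
Spearman's rho on CPM over 96 cells, for 10 p53 target genes against Cdkn1a (left) and 12 cycling and cyclin E genes against Cdk2 (right); filled points use all cells as they are and open points values centered within sets of 8 cells, and the dotted line marks 0.3. On the left 8 genes pass 0.3, from Sesn2 (0.33) to Ccng1 (0.53); on the right the 5 that pass are Mcm5, Pcna, Mcm2, Ccne2 and Ccne1.

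Cdkn1a went with other p53 targets. Of a list of 10, 8 reached a rho of 0.3 to Cdkn1a on CPM, beside 1.04% of all genes: Ccng1 (0.53), Trp53inp1 (0.52), Btg2 (0.50), Zmat3 (0.42), Mdm2 (0.41), Phlda3 (0.36), Eda2r (0.35) and Sesn2 (0.33). Bax (0.20) and Gadd45a (0.02) did not. The first 3 were also the 3 genes most like Cdkn1a out of 14462. The list was chosen with earlier results of these data known, so it is not independent of these cells. Centered on sets of 8 cells, 6 of the 10 remained at 0.3 or above. None of the 10 reached a rho of 0.3 to Mki67 in either direction. On ERCC-normalized counts 15.8% of all genes reached 0.3 and 0.0553% reached -0.3 (3.56% and 0.491% on CPM), so a count of 0 in a list this short says little.

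Between sisters the p53 targets went with Cdkn1a less evenly. Trp53inp1 and Zmat3 were each higher in the same sister as Cdkn1a in 33 of 48 pairs (68.8%, interval 53.7% to 81.3%) and Btg2 in 31 (64.6%, 49.5% to 77.8%). Ccng1, Mdm2, Phlda3 and Bax were so in 29 each (60.4%, 45.3% to 74.2%), Sesn2 in 26 and Gadd45a in 23. Eda2r, with a median of 0 TPM, was so in 14, and a further 22 of its pairs were tied. The within-pair differences correlated best for Ccng1 (0.42 through the origin), and least among the 8 for Mdm2 (0.04). For Mdm2, the negative regulator of p53, the rho over pair means was 0.47.

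Among themselves, most couples of members were weakly related. Of 36 couples, 2 had a rho of at least 0.3 on CPM and 1 of -0.3 or lower (median 0.02). The share over all couples of genes was not computed. Set against single members, 1.04% of all genes reached 0.3 to Cdkn1a and 0.802% to Cdk2. Ccnd1 and Ccnd2 went together over cells (0.49, and 0.53 centered on sets), and were higher in the same sister in 28 of 48 pairs. Ccnd3 went with Cdk2 (0.34), and Cdk6 went against Cdkn2b (-0.33), the inhibitor of its kinase activity; in 17 of 48 pairs these were higher in the same sister. On ERCC-normalized counts 9 couples reached 0.3 and none -0.3, and Cdk6 with Cdkn2b stood at -0.17. On that scale the median rho of all genes to the estimated RNA content was 0.29. No matching share was computed there or for -0.3, so these counts have no background.

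For each member with 10 counts in at least 90% of cells, the 3 most similar genes by rho on CPM were listed. Ccnd1 was closest to Ccnd2 (0.49), Rrs1 (0.44) and Gm35013 (0.41). Ccnd2 was closest to Tmsb4x (0.57), an actin-binding peptide, Serpinb10 (0.53) and Ccnd1. Cdk2 was closest to Mcm5 (0.53), Pcna (0.48) and Gm50184 (0.48). Cdk4 was closest to Srsf11 (0.54), Smc6 (0.52) and Ezh2 (0.51), the Polycomb methyltransferase, and Cdk6 to Rsl1d1, Mybbp1a and Cdv3 (0.54 each), of which Rsl1d1 and Mybbp1a are nucleolar proteins. Ccnd3 was closest to Naa40 (0.48), Nup62 (0.44) and Gart (0.43), and Cdkn1b to the nuclear RNA Malat1 (0.43), AI413582 (0.42) and Ddit4 (0.41). These are the highest of 14462 values each and are given as description. None of 4 measured regulators of D-type cyclins (Myc, Egfr, Ctnnb1 and Yap1) reached a rho of 0.3 to Mki67, beside 15.8% of all genes (3.56% on CPM). A count of 0 among 4 genes says little. Their rho to the D-type cyclins themselves is not given here. The remaining listed regulator, Mycn, did not pass the filter.

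Whether the counting used strand was not given in the sources used here, and several members overlap a gene on the opposite strand. Ccnd3 shares 361 bases with Bysl (median 4141.5 counts), Cdk4 shares 641 with Tspan31 (median 6343) and Ccnd1 shares 1771 with LTO1 (median 416.5). Cdk2 shares 837 with Pmel (counted in 24 cells, up to 1524 counts), and Cdkn1a shares 1046 with 1700023B13Rik (29 cells, up to 785). The counts of these members may therefore include reads of those neighbors.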

How the data were processed

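Single daughter cells of cultured HBCs (96 cells, 48 pairs, 1 group) were profiled by poly(A) single-cell RNA-seq; the labels name both G&T-seq and Smart-seq2. The submitters' processing notes name Trimmomatic 0.39, STAR 2.7.11a and StringTie 2.2.1 with GRCm38. The authors deposited a matrix of raw read counts per gene, 92 ERCC transcripts included, and a StringTie table per cell, from which the deposited TPM values were used. The design comes from the labels: pair and daughter numbers are in the sample titles.

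Each cell's counts were divided by a spike-in size factor (median-of-ratios rule, using those 22 ERCC transcripts that no cell lacked); CPM used the total on genes. Genes with 10 counts in at least 10% of cells (14463 of 55487) formed the background. For each gene the sister ratio (pseudocount 1), the one-way intraclass correlation over pairs of log2(value + 1) and Spearman's rho were computed (Python 3.11.15, numpy 2.4.6, scipy 1.17.1, pandas 2.3.3). A median ratio of 1.5, an intraclass correlation of 0.5 and a rho of 0.3 or -0.3 served as descriptive thresholds. For shares, 95% intervals (exact, Clopper-Pearson) reflect the counting error alone. A count of 0 in 96 cells allows a share of up to 3.77%. On data simulated for 14463 genes, the intraclass threshold found 98 of 100 genes made to be shared within pairs, and the rho threshold 100 of 100 tied to a marker. The simulated effects were set above the thresholds and above every intraclass correlation and rho to Mki67 of a member. The simulated counts held counting noise around given levels, with no noise of amplification, and the marker was used without noise. The recovery of weaker effects, or under the noise of these data, was therefore not tested.

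Named genes were all members, all listed genes past a threshold, the 3 genes most like each member and the pair with the largest ratio per member; pairs and cells named otherwise are marked as chosen after their values were seen. The members and lists were chosen with earlier results of these data known. Alternatives were other scalings, pseudocounts, cutoffs and markers, and leaving out sets or pairs. RNA-seq of pairs has no replicate cultures in the labels, so no test was run.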

Additional observations from a re-analysis of the deposited data

How the results depend on the processing

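Sisters were compared within pairs throughout; with 1 group there was no fit between groups to which a block could be added. The number of members in all cells was 7; at a minimum of TPM 1 it was 4, and after thinning to the lowest library total it was 7. Members reaching an intraclass correlation of 0.5 numbered 2 under every scaling tried, 1 after centering on sets of 8 cells (Ccnd2), and 1 to 3 when a set or, as an alternative chosen after seeing the data, a pair was left out; without pair 42 or without pairs 41 to 44 Cdkn1a dropped below, and without pair 4 or pairs 1 to 4 Cdk4 was added. Members reaching a rho of 0.3 to Mki67 numbered 2 (Cdk4 and Cdkn1b) with the spike-in, 1 on CPM, 0 on deposited TPM, 0 with median-of-ratios factors over genes, 1 with Pearson's r and 1 after centering on sets; it was 2 whichever set or pair was left out. At -0.3 the count was 0 throughout except for 1 (Ccnd2, -0.32) with factors over genes. The cause of these differences was not tested. With a cutoff of 2 in place of 1.5, the share of pairs was 25.0% for Ccnd1, 22.9% for Ccnd2, 31.2% for Ccnd3, 20.8% for Cdk4, 62.5% for Cdkn1a and 64.6% for Cdkn1b, and on CPM at 1.5 it was 70.8% for Cdkn1b; the other 43 values of this kind lay within the interval of the reported one, as did all 45 alternatives for the sister higher in Mki67. Low counts limit what can be said of Cdkn2a, and spike-in noise what can be said of the sister ratios; the share of pairs of 1 member (Cdkn1a) had its interval above the spike-in matched on mean TPM, and of 0 members with the match on median TPM, an alternative also chosen after seeing the data.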
